A study of Homo sapiens with 2 samples.

Results

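Expression of 10 genes that canonical Wnt signalling switches on, or that restrain it, was examined in NCI-H716 cells, a line from a human colorectal adenocarcinoma of the cecum that serves as a model of the enteroendocrine L-cell. The genes were AXIN2, LGR5, ASCL2, NKD1, RNF43, ZNRF3, NOTUM, TCF7, LEF1 and SP5. They were taken by gene symbol from a table of 19989 genes, in which 9 of the 10 had a row and 1, ASCL2, had none and was counted as not detected. The study held 2 libraries of polyadenylated RNA, 1 from cells cultured for 48 h in low glucose (5.5 mM) and 1 from cells cultured for 48 h in high glucose (25 mM). Both cultures were the same unmodified line, attached to Matrigel and held in serum-containing medium, so glucose was the only difference that the labels gave. With 1 library per concentration, no difference below has a replicate check and no p-value was computed. Intervals are 95% intervals from counting error only, and they compare these libraries rather than the glucose concentrations.

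In canonical Wnt signalling, a secreted Wnt protein binds a Frizzled receptor and the co-receptor LRP5 or LRP6, which stops the destruction complex of APC, an AXIN scaffold and the kinases GSK3 and CK1 from marking beta-catenin for degradation. Beta-catenin then enters the nucleus and binds TCF/LEF factors, which sit on DNA at target genes. Many targets feed back on the pathway. AXIN2 rebuilds the destruction complex, NKD1 binds Dishevelled, the ubiquitin ligases RNF43 and ZNRF3 remove Frizzled from the cell surface, and NOTUM is a secreted enzyme that inactivates Wnt proteins. LGR5, which marks stem cells at the base of the crypt, binds R-spondins and thereby holds RNF43 and ZNRF3 back. In the colon the pathway maintains stem cells, and in most colorectal cancers it is switched on by mutation.

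The libraries held 21757854 (low glucose) and 19456570 (high glucose) estimated counts, recovered from the steps between low values. Values are CPM, the counts of a gene scaled to a common library size, after scaling by trimmed mean of M-values (TMM) factors, and 1 count was worth 0.0460 CPM at 5.5 mM and 0.0514 CPM at 25 mM. The limit for a gene with no counts (3 counts of the total) was 0.138 CPM and 0.154 CPM. Of 8 enteroendocrine marker genes, 7 had a mean of at least 1 CPM, among them GCG, which encodes proglucagon, at 1954 CPM at 5.5 mM and 1808 CPM at 25 mM. Of 9 markers of colon epithelium, 7 did so. KRT8 and KRT18 were at 280 and 197 CPM on average, whereas EPCAM was at 3.44 CPM, CDH1 rested on 1 and 3 counts, and KRT20 on 3 and 0 counts. Thus E-cadherin (CDH1) and keratin 20, which usually mark colon epithelium, did not exceed 3 counts in either library. Of 8 fibroblast, 6 endothelial and 7 leukocyte markers, 4, 0 and 2 reached a mean of 1 CPM, among them COL3A1 at 778 CPM, LUM at 179 CPM and LYZ at 427 CPM, while COL1A1 had 1 and 2 counts, and DCN and PTPRC had no row.

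SP5, which encodes a zinc-finger factor that binds DNA and is a direct target of beta-catenin, had the highest level of the members per length of transcript. It lies on chromosome 2 (GRCh38, 170715351 to 170718078, plus strand). Of the members with an entry in the promoter table, its promoter is shown as that of the leading member, beside those of TCF7 and LEF1, near 1 CPM and at the limit of counting. The 250 bases before each RefSeq start are printed 5′ to 3′ from GRCh38.p14, at chr2:170715087-170715336, plus strand for SP5, chr5:134123368-134123617, plus strand for the downstream start of TCF7, and chr4:108166302-108166551, minus strand for LEF1. Capitals mark matches, on either strand, to the TCF/LEF motif CTTTG followed by AT, AA, TT or TA.
SP5: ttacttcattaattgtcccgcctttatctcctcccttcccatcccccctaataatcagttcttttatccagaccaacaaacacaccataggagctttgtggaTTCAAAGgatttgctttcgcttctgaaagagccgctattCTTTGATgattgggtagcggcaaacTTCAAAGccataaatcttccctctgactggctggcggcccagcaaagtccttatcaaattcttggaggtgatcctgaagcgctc
TCF7: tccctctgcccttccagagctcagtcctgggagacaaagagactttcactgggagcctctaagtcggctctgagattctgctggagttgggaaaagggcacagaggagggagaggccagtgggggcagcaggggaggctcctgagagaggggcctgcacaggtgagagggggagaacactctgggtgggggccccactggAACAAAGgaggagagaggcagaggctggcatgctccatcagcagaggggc
LEF1: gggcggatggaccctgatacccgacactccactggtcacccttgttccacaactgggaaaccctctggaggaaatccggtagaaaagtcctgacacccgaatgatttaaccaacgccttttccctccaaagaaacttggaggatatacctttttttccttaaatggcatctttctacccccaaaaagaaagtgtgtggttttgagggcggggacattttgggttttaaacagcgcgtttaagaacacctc

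The window of SP5, which also takes in 50 bases after the start, held 3 matches, 148, 109 and 84 bases before the start, and none of them overlapped another. Of the 35116 RefSeq promoter windows of 300 bases, 13.8% held at least 1 match and 0.179%, or 63 windows, held 3 or more. Among the 13501 windows of genes that reached a mean of 1 CPM, 9.48% held a match and 10 windows held 3 or more. TCF7 had 1 match, 50 bases before its downstream start, and none in the window of its upstream start. No match was found in the window of LEF1 or in either window of RNF43, which says only that these letters are not in these windows. A match is a description of sequence and was not tested as a binding site. For the 103 other Wnt pathway genes examined, 78 had windows in the RefSeq table, and 7 of their 105 windows (6.67%) held a match. Of the 10 members, 4 were matched to the RefSeq promoter table by symbol (SP5, TCF7, LEF1 and RNF43). Of these 4, 2 had a match to the motif. That count is per gene, with 2 windows each for TCF7 and RNF43. The shares given above are per window, and no share per gene was computed to set beside it. AXIN2, LGR5, ASCL2, NKD1, ZNRF3 and NOTUM are named only.

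The levels of the members are given as CPM at 5.5 mM and then at 25 mM glucose. With 2303 estimated counts at 5.5 mM and 1854 at 25 mM, SP5 was at 106 CPM (95% Wilson interval 102 to 110) and 95.2 CPM (90.9 to 99.6), higher at 5.5 mM with no overlap of the intervals. RNF43 was at 40.4 CPM (37.8 to 43.1) and 35.6 CPM (33.0 to 38.3), from 877 and 693 counts, with the higher value again at 5.5 mM and intervals that overlapped slightly. Of all genes, CORO1B, UHMK1 and SH3GL1 were the nearest to SP5 by Euclidean distance of log2 CPM over the 2 libraries, with CORO1B at 105 and 95.7 CPM; they were picked for that closeness, so their values say nothing further about SP5.

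ZNRF3, the partner ligase of RNF43, was at 19.5 CPM at 5.5 mM (17.7 to 21.4) and 21.3 CPM at 25 mM (19.3 to 23.4). LGR5 was at 11.1 CPM (9.74 to 12.5) and 11.4 CPM (9.94 to 12.9). For both genes the intervals of the libraries overlapped, and in both the high glucose library had the higher value. The Dishevelled-binding feedback gene NKD1 was at 5.26 CPM (4.37 to 6.30) in low glucose and 4.17 CPM (3.34 to 5.17) in high glucose. AXIN2, often used as the readout of active beta-catenin signalling, was at 2.13 CPM at 5.5 mM (1.59 to 2.82, from 46.0 counts) and 1.65 CPM at 25 mM (1.16 to 2.32, from 32.0 counts). The intervals of NKD1 and of AXIN2 also overlapped between the libraries, with the lower value in high glucose.

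The remaining members lay near or under 1 CPM. TCF7, which encodes the factor TCF-1, was at 0.841 CPM at 5.5 mM (0.524 to 1.31, from 18.0 counts) and 1.09 CPM at 25 mM (0.705 to 1.65, from 21.0 counts). Its mean of 0.965 CPM fell just below the threshold of 1 CPM, and that of AXIN2, 1.89 CPM, was the nearest above it. LEF1, the TCF/LEF factor that is itself a Wnt target in colon tumours, had 3 counts at 5.5 mM and 2 at 25 mM. NOTUM had the same numbers, 3 and 2, so both were at 0.150 CPM (0.0470 to 0.406) and 0.115 CPM (0.0281 to 0.374). These values include the prior, and without it the level at 5.5 mM is 0.138 CPM, equal to the limit of 3 counts. Neither gene thus exceeded 3 counts, and no ratio is given for them. ASCL2, a stem cell transcription factor and the remaining member, had no row, where the authors had removed genes with a total under 1 estimated count. In all, 6 members had a mean of at least 1 CPM, 4 of them at least 10 CPM, and 3 with a row were under 1 CPM. Over all genes, 13052 of 19989 with a row had a mean of at least 1 CPM, a share similar to that of the members.

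**Figure D1:**
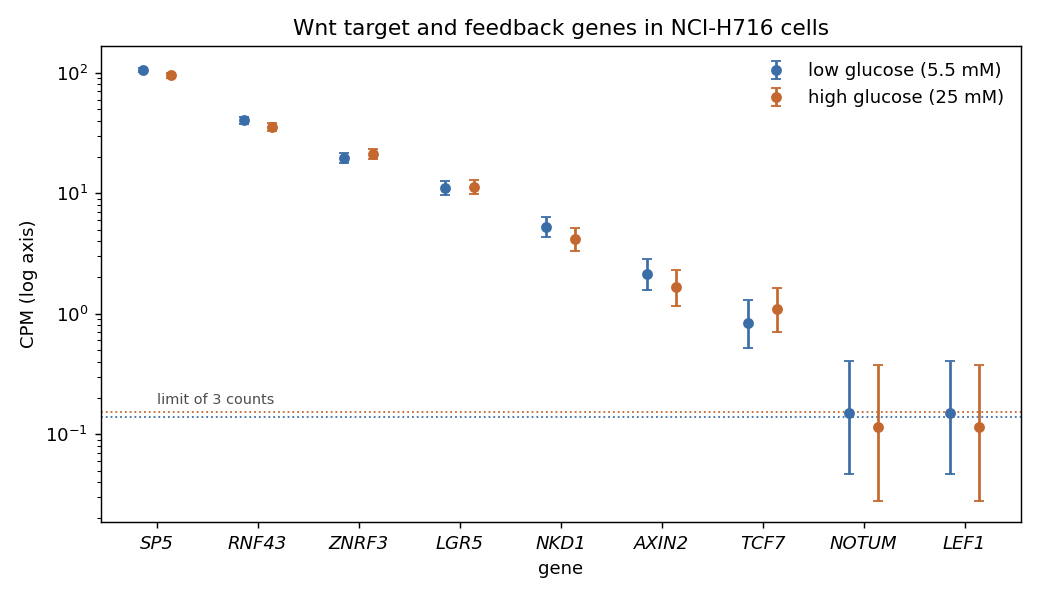
CPM (log axis) of the 9 members with a row, in low glucose (blue) and high glucose (orange), 1 library each. Bars are 95% Wilson intervals and dotted lines are the limits of 3 counts; points include the small prior of the deposited values. SP5 is near 100 CPM in both libraries, while NOTUM and LEF1 lie at the limit of counting.

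Levels of different genes were compared per kb of transcript, with the median length of each gene's protein-coding transcripts in GENCODE v29. For AXIN2, 4 of 8 such transcripts are marked as incomplete in the annotation, for TCF7 8 of 14 and for NOTUM 2 of 3. The medians of AXIN2 and TCF7 (1047 and 699.5 bases) lie far under their longest transcripts (4259 and 3330 bases), and their levels per kb are lower with the longest. On this scale SP5 was at 52.2 CPM per kb at 5.5 mM and 46.8 CPM per kb at 25 mM, 5.12 and 5.21 times RNF43 (10.2 and 8.98 CPM per kb). ZNRF3 came next, at 6.77 and 7.39 CPM per kb, then LGR5 at 3.95 and 4.05 CPM per kb. These 4 genes kept that order in both libraries, with intervals that did not overlap between neighbours by the median length. With the longest transcripts, ZNRF3 was at a mean of 2.97 and LGR5 at 2.43 CPM per kb, a ratio of 1.22 in place of 1.77, and their intervals overlapped at 5.5 mM (2.58 to 3.13 and 2.11 to 2.72) but not at 25 mM. AXIN2, at 2.03 and 1.58 CPM per kb, did not differ beyond its interval from TCF7, at 1.20 and 1.56 CPM per kb. NKD1, whose single protein-coding transcript is 17105 bases long, was at 0.307 and 0.244 CPM per kb and overlapped NOTUM, at 0.151 and 0.115 CPM per kb. With the longest transcripts NOTUM was at 0.0645 and 0.0493 CPM per kb, and the intervals of these genes did not overlap in either library. LEF1 was at 0.102 and 0.0775 CPM per kb. Among the 13789 genes with a protein-coding length, the mean per kb ranked 2795 for SP5, 7148 for RNF43, 7875 for ZNRF3, 9058 for LGR5, 10161 for AXIN2, 10425 for TCF7 and 11840 for NKD1. With the longest transcript in place of the median, the order of the members' means was the same, although the mean of AXIN2 moved from 1.81 to 0.444 CPM per kb and that of TCF7 from 1.38 to 0.290 CPM per kb. TCF7 was 5.01 times NKD1 by the median length and 1.05 times by the longest, where TCF7 was below NKD1 at 5.5 mM (0.252 against 0.307 CPM per kb) and above it at 25 mM (0.327 against 0.244 CPM per kb), with overlapping intervals in both.

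Several members have a close relative that acts at the same step, and in 3 families a gene that is not a member was the higher one. AXIN1, the constitutive scaffold of the destruction complex, was at 20.5 CPM per kb at 5.5 mM and 18.7 CPM per kb at 25 mM, 10.1 and 11.8 times AXIN2. The ratio of their means was 10.8, and 40.3 with the longest transcripts. LGR4, the other main R-spondin receptor of the gut, was at 21.3 and 24.6 CPM per kb, 5.40 and 6.06 times LGR5, and the ratio of their means moved from 5.73 to 9.36 with the longest transcripts. LGR5 was 10.0 and 12.8 times LGR6, at 0.395 and 0.318 CPM per kb.

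Among the TCF/LEF factors, TCF7L2, which is the usual family member of intestinal epithelium, was at 24.6 CPM per kb at 5.5 mM and 21.7 CPM per kb at 25 mM, 20.5 and 13.9 times TCF7. The ratio of their means was 16.8, and 33.9 with the longest transcripts. TCF7L2 rested on 938 and 742 counts, whereas TCF7L1 had 0 and 2 counts and LEF1 3 and 2. Thus 1 of the 4 TCF/LEF genes carried nearly all counts of the family in both libraries. NKD1 had a higher value than NKD2, which rested on 5 and 4 counts, although their intervals per kb overlapped. RNF43 exceeded ZNRF3 in both libraries, by a mean of 1.35 times (2.29 times with the longest transcripts), with no overlap of intervals in either. None of these relatives shared a stretch of 75 bases, the length of the aligned reads, in GENCODE v29 transcripts.

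**Figure D2:**
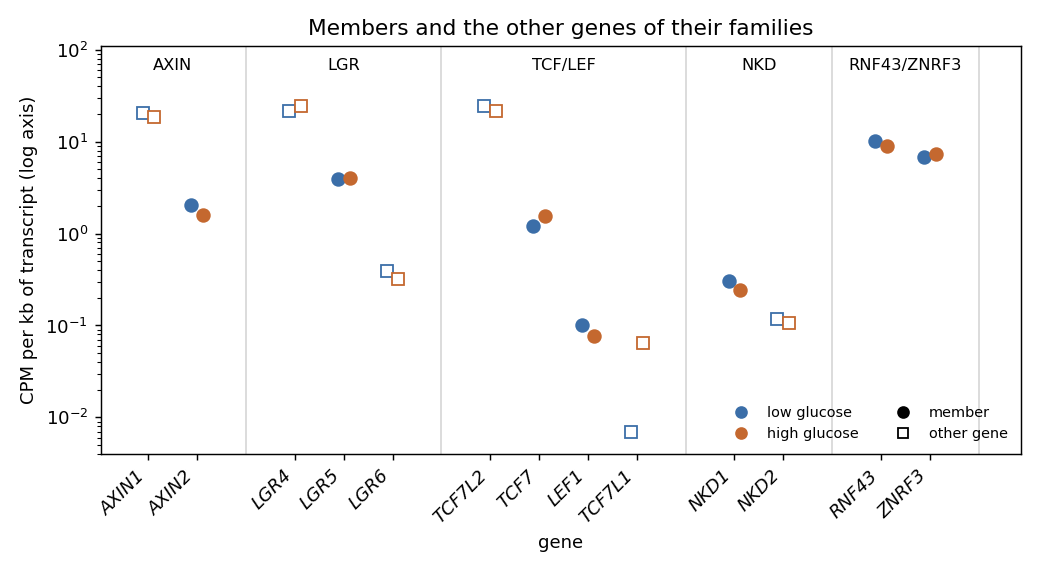
CPM per kb of transcript (log axis) for members (filled circles) and other genes of their families (open squares), in low (blue) and high glucose (orange). AXIN1, LGR4 and TCF7L2 lie between 18.7 and 24.6 CPM per kb, above the members of their families. The point of TCF7L1 in low glucose is the prior alone, since its count was 0.

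On GRCh38 as annotated in GENCODE v29, RNF43 lies at chr17:58352500-58417595 (minus strand), AXIN2 at chr17:65528563-65561647 (minus) and NOTUM at chr17:81952507-81961840 (minus), all on chromosome 17. ZNRF3 lies at chr22:28883592-29057487 (plus), LGR5 at chr12:71439770-71586310 (plus) and NKD1 at chr16:50548330-50649249 (plus). TCF7 lies at chr5:134114711-134151865 (plus), LEF1 at chr4:108047545-108168956 (minus) and ASCL2 at chr11:2268495-2270952 (minus). Overlapping genes limit what the counts of some members mean. The libraries were made with a kit that does not mark strand, so this holds for genes on the other strand as well as the same strand. In GENCODE v29, 57.6% of the exonic bases of RNF43 also belong to AC004687.2 on the same strand and 20.3% to the antisense gene TSPOAP1-AS1. For AXIN2, 25.2% are shared with AC004805.1 on the same strand. TCF7 shares 2.09% with SKP1 on the other strand, which was at 288 CPM at 5.5 mM and 287 CPM at 25 mM. RNF43 also shares 1.91% with SUPT4H1 on the same strand, at 41.3 and 40.5 CPM. The table has no row under the names AC004687.2, TSPOAP1-AS1 or AC004805.1, but it uses other names for many such genes, so their levels were not determined. LEF1 shares 5.20% with LEF1-AS1, LGR5 3.96% with AC078860.1 and NKD1 0.385% with AC007608.1, each on the other strand. The levels of these 6 members are therefore uncertain, and how many of their counts come from the shared bases was not tested. The table gives 1 value per gene, so the forms of TCF7 and LEF1 that lack the beta-catenin binding part cannot be told apart from the full-length forms.

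To ask whether glucose concentration went with the level of these genes, the libraries were compared as the log2 of the ratio of 25 mM over 5.5 mM. In bulk RNA, fewer cells that express a gene and less RNA of it per cell cannot be told apart. None of the 6 members that reached a mean of 1 CPM differed by 1.5-fold, where 3.68% of all 13052 genes at that level did so. Of those 480 genes, only 42 had a mean of at least 10 CPM, where 4 of the 6 members lay. The 95% counting interval of the ratio lay below 0 for 2 of the 6, SP5 and RNF43, where it did so for 15.9% of all genes, and it lay above 0 for 0 of the 6, where it did so for 15.8% of all genes. With 6 genes, these counts are too few to set against the background. The median log2 ratio of the 6 members was -0.17, beside -0.0064 for all 13052 genes. Over the 9 members with a row, the summed level was 185 CPM at 5.5 mM and 170 CPM at 25 mM, a sum of which SP5 and RNF43 made up 78.9% and 76.7%, while ZNRF3, LGR5 and TCF7 had higher values at 25 mM.

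For SP5 the log2 ratio was -0.16 (95% interval -0.25 to -0.07), a high glucose level 0.898 times that in low glucose. For RNF43 it was -0.18 (-0.33 to -0.04), or 0.881 times. Both differences exceeded counting error at the 95% level, at the 99% level only that of SP5 did so (RNF43, -0.37 to 0.01), and both lay within the spread of other genes at the same level. Of the 1688 genes with a mean of 100 to 300 CPM, the middle 95% ran from -0.23 to 0.23, and of the 4005 genes with a mean of 30 to 100 CPM, from -0.30 to 0.26.

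The other members did not differ beyond counting error. The log2 ratio was 0.13 for ZNRF3 (-0.07 to 0.32) and 0.04 for LGR5 (-0.23 to 0.31). Those intervals leave room for a level in high glucose from 0.951 to 1.25 times that in low glucose for ZNRF3, and from 0.851 to 1.24 times for LGR5. The lower members had wider intervals, with a log2 ratio of -0.34 for NKD1 (-0.77 to 0.09), -0.36 for AXIN2 (-1.06 to 0.32) and 0.37 for TCF7 (-0.60 to 1.37). Each of these 3 intervals reaches past 1.5-fold in at least 1 direction. RNF43 and ZNRF3, which do the same task, had values on either side of 0, and the difference between them was not tested.

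**Figure D3:**
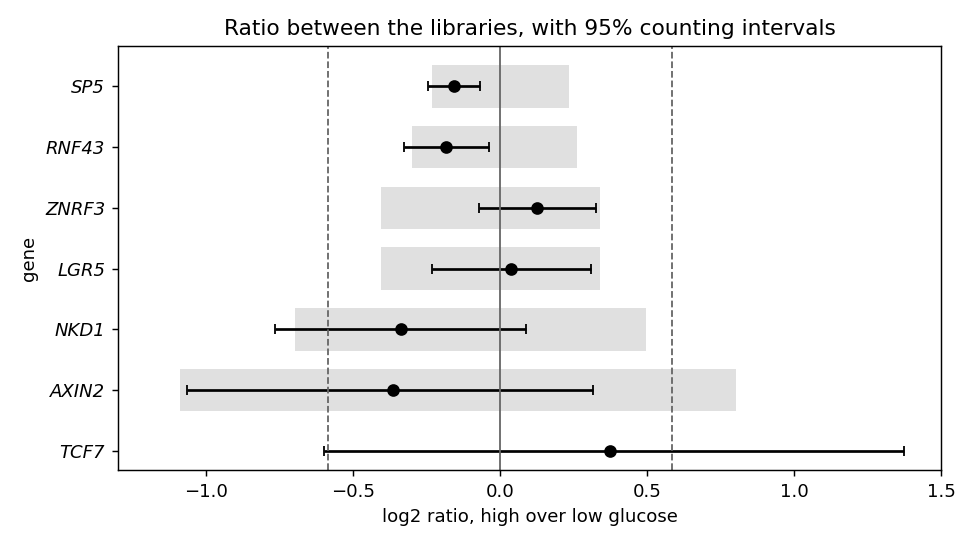
Log2 ratio of high over low glucose (points) with 95% counting intervals (black bars) for the 7 members with more than 3 counts in both libraries. Grey bars span the middle 95% of all genes in the same range of mean CPM, drawn for members that reached a mean of 1 CPM, and dashed lines mark 1.5-fold. The intervals of SP5 and RNF43 lie below 0, and all points lie inside 1.5-fold.

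**Figure D4:**
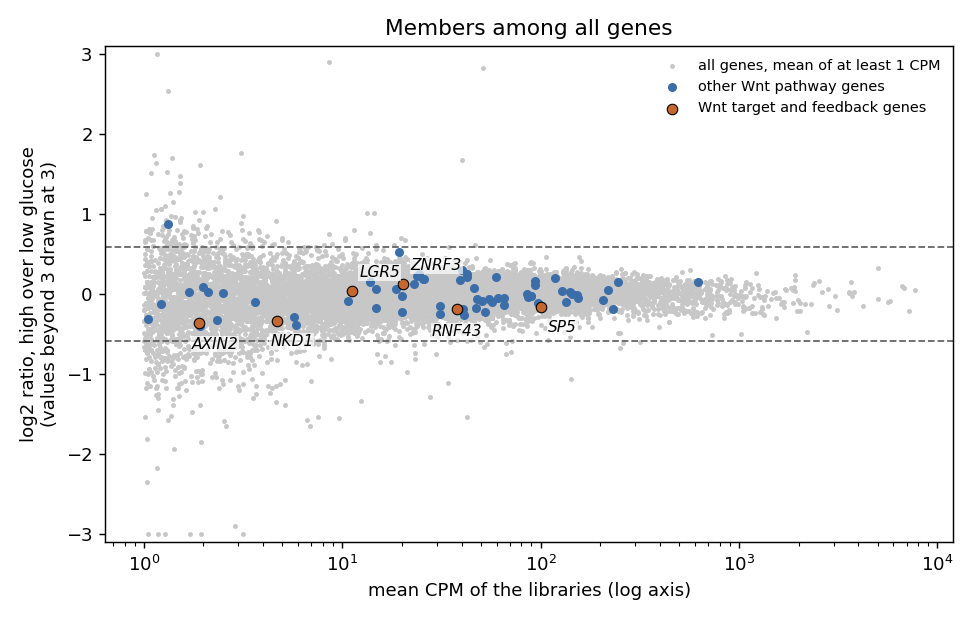
Log2 ratio of high over low glucose against mean CPM (log axis) for the 13052 genes that reached a mean of 1 CPM (grey, drawn at 3 where beyond 3), other Wnt pathway genes (blue) and the 6 members at that level (orange). Dashed lines mark 1.5-fold. The members lie within the cloud of all genes.

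Marker lists of other cell types, and of the labelled ones, mostly gave sums that a few abundant genes set. The endothelial list was the exception, with no gene at a mean of 1 CPM. The 5 fibroblast markers with a row summed to 1007 CPM at 5.5 mM and 941 CPM at 25 mM, where COL3A1 alone was at 815 and 742 CPM. Of the 4 that reached a mean of 1 CPM, the other 3 (COL1A2, PDGFRA and LUM) had ratios above 0, and the median log2 ratio of the 4 was 0.14. The 4 leukocyte markers with a row summed to 456 and 427 CPM, and the 5 endothelial markers to 1.21 and 0.933 CPM. The 7 enteroendocrine markers with a row summed to 4437 and 4250 CPM, with GCG lower and PCSK1 higher at 25 mM (555 and 600 CPM), 3 of the 7 ratios above 0, intervals above 0 for 1 and below 0 for 3, and a median log2 ratio of -0.0020. The 9 epithelial markers summed to 522 and 586 CPM. Of the 7 that reached a mean of 1 CPM, the counting interval lay above 0 for 4 (KRT8, KRT18, VIL1 and CDX2) and below 0 for 0, the opposite side from SP5 and RNF43, beside 15.8% and 15.9% of all genes. Past 1.5-fold were VIL1, at 11.7 and 17.8 CPM, and KRT19, at 1.49 and 0.987 CPM, with an interval that took in 0 (-1.50 to 0.27). Their part in the differences of SP5 and RNF43 was not tested.

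The rest of the pathway gives the setting of these members. Of 103 other pathway genes, 81 had a row and 63 a mean of at least 1 CPM, and 1 of the 63, or 1.59%, differed by 1.5-fold, beside 3.68% of all genes. This was SOX9, a crypt transcription factor and Wnt target, at 0.933 CPM at 5.5 mM (20.0 counts) and 1.71 CPM at 25 mM (33.0 counts). Over all genes, those past 1.5-fold mostly had a mean under 10 CPM, so the share depends on level. The counting interval lay above 0 for 16 of the 63 genes (25.4%, beside 15.8% of all genes) and below 0 for 12 (19.0%, beside 15.9%), and their median log2 ratio was -0.02. By list, the numbers above and below 0 were 1 and 1 of 5 ligands, 0 and 0 of 2 secretion genes, 4 and 2 of 11 Frizzled and co-receptor genes, and 1 and 0 of 2 R-spondin and LGR genes. They were 3 and 0 of 5 inhibitors, 0 and 4 of 14 genes of Dishevelled and the destruction complex, 4 and 3 of 13 genes for beta-catenin and its partners, and 3 and 2 of 11 other targets.

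Of 19 Wnt ligand genes, 12 had a row and 5 reached a mean of 1 CPM. WNT10A was at 23.9 CPM at 5.5 mM and 27.2 CPM at 25 mM, and WNT4 at 6.64 and 5.09 CPM. The ligand-modifying enzyme gene PORCN was at 20.2 and 19.9 CPM, and WLS, which carries Wnt proteins to the cell surface, at 90.5 and 88.7 CPM. On the receiving side, 11 of 15 receptor genes reached 1 CPM, among them LRP5 at 139 and 130 CPM and FZD1 at 89.9 and 97.3 CPM. Thus both Frizzled genes and co-receptors, the proteins that RNF43 and ZNRF3 act on, were detected. The R-spondins, ligands of LGR5, were at or under 3 counts (RSPO2 and RSPO3) or had no row (RSPO1 and RSPO4), while LGR4 was at 110 and 127 CPM.

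Of 14 secreted and membrane inhibitors, 5 reached 1 CPM. The secreted Wnt antagonist FRZB was at 215 CPM at 5.5 mM and 223 CPM at 25 mM, and KREMEN1 was at 36.7 and 41.5 CPM. DKK1, an inhibitor of LRP5 and LRP6 that is also a Wnt target, was at 15.8 and 22.7 CPM, and its log2 ratio of 0.52 (0.32 to 0.73) stayed under 1.5-fold; it was singled out after its values were seen. All 14 genes of Dishevelled and the destruction complex had a mean of at least 1 CPM. CSNK1A1 was at 144 CPM in both libraries and DVL3 at 139 and 141 CPM, and AXIN1 had a log2 ratio of -0.14.

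CTNNB1, which encodes beta-catenin, was at 233 CPM at 5.5 mM and 259 CPM at 25 mM, with a log2 ratio of 0.16 (0.10 to 0.21), and the coactivator CREBBP was at 212 and 201 CPM. Of 15 genes for beta-catenin and its nuclear partners, 13 reached 1 CPM. Among 18 other Wnt target genes of colon, 11 did so. CCND1, a cell cycle gene, was at 585 and 652 CPM, and MYC, a growth regulator, at 246 and 216 CPM. In contrast, EPHB2 rested on 6 counts in each library, and CDX1, MMP7, SMOC2 and OLFM4 had no row. Targets of the pathway that had no row or few counts were thus found among the members and among the other targets alike.

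**Figure D5:**
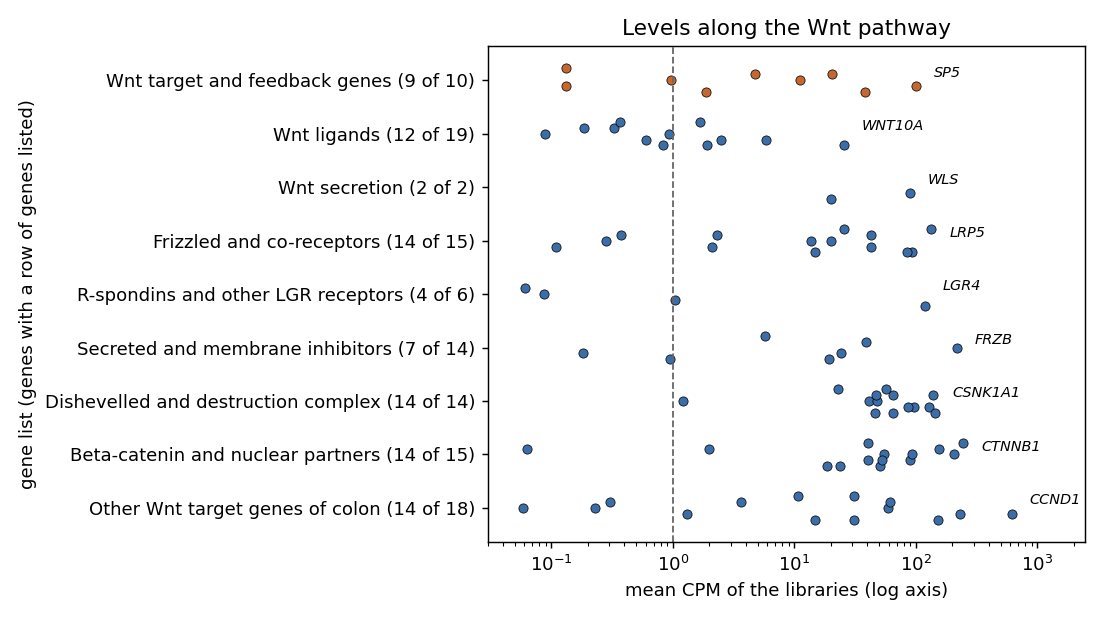
Mean CPM of the libraries (log axis) for each gene with a row, by list, with the highest gene of each list named; vertical scatter has no meaning. The dashed line marks 1 CPM. All 14 genes of Dishevelled and the destruction complex lie above it, against 6 of the 10 members and 5 of the 19 Wnt ligands. Of all 19989 genes with a row, 13052 had a mean of at least 1 CPM.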

How the data were processed

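Polyadenylated RNA of NCI-H716 cells was sequenced in 2 libraries, 1 per glucose concentration. Per the labels and the study's methods, the authors trimmed reads with Trim Galore 0.5.0, aligned them to GRCh38 (GENCODE v28) with STAR 2.6.0, estimated counts with RSEM 1.3.1, removed genes whose estimated counts added to under 1 and normalized with TMM in edgeR. The authors deposited CPM per library, which hold a small prior, and the log2 of these CPM; the deposited means, log2 differences and fold (ratio) of high over low glucose were not used. The deposited CPM add to 1000242 in each library. With equal sums they carry no TMM factor, so the factors below were applied once.

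Estimated counts were recovered from the steps of the CPM (72.1% and 72.7% of values under 10 CPM were whole within 0.03 counts) and were not treated as whole reads. TMM factors of 0.998 and 1.002 were computed with numpy 2.4.6 and scipy 1.17.1 (Python 3.11.15, tables in pandas 2.3.3), and no count model was run. CPM carry Wilson intervals and ratios exact binomial intervals. Calculations were tested on simulated data. Lengths and coordinates came from GENCODE v29, which gave a protein-coding length for 69.0% of genes, and promoters from RefSeq on GRCh38.p14. Lengths were matched by gene name, so a protein-coding gene listed under another name had no length and no rank per kb. A planned comparison of protein sequences was not made, and transcripts of relatives were searched for shared 75-base stretches instead. The members, lists and alternatives were chosen with earlier results of these data known. Genes named were all members, per pathway list the 2 highest and any past 1.5-fold whose mean reached 10 CPM, the 3 nearest to the highest member, and the members closest to 1 CPM. Others named, such as markers, family relatives and genes at the limit of counting or without a row, were chosen after their values were seen.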

Additional observations from a re-analysis of the deposited data

How the results depend on the processing

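CPM without TMM factors, CPM without the prior and scaling by the median of ratios left all 54 CPM values of members, and, with 1 CPM added as well, all 28 log2 ratios, within their counting intervals, and 0 changed sign. The number of members past 1.5-fold was 0 under each of the 6 alternatives. Since it was 0 in the main setting, some of these could only return 0 by construction. They were the 2-fold threshold, the filter at a mean of 10 CPM and the addition of 1 CPM, which shrinks ratios. The number of members whose counting interval excluded 0 was 2, and 1 at a 99% interval. That interval is wider by construction and takes in 0 for RNF43. Over all genes, 480 passed 1.5-fold, against 168 after adding 1 CPM to each value, 4694 unfiltered, 42 above a mean of 10 CPM and 109 at 2-fold. Of the other pathway genes 1 passed, and 0 above a mean of 10 CPM. SP5 stood 5.16 times above the next member per kb, and 7.26 times with the longest transcripts, a choice that moved beyond counting error the levels per kb of all 5 members above the limit of counting that have more than 1 transcript length. Depth limits AXIN2, TCF7, NOTUM and LEF1 most. Leaving out a library was not possible with 1 per concentration. No paired analysis was possible because neither concentration has a second library.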
